A study of Mus musculus with 4 samples.

Results

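The constitutive proteasome genes are 40 genes chosen by symbol: 7 core alpha subunits, 7 core beta subunits, 6 cap ATPases, 3 other subunits of the cap base, 8 cap lid subunits, 4 activators, 1 inhibitor, 3 assembly chaperones and the transcription factor Nfe2l1. All 40 were found once each among the 18872 gene identifiers listed in the deposited tables, and all 40 passed the filter on low counts. They were followed in RNA from primary mouse colon epithelial cells. Both groups had received DSS, a sulfated dextran used to injure the mucosa of the colon, at 2% for 3 days. The wild-type group (WT DSS) gave 2 libraries. The knockout group (KO DSS, genotype EZH2-IEC-/-) gave 2 libraries from mice whose intestinal epithelium lacks Ezh2, the enzyme of the Polycomb complex PRC2 that methylates histone H3 at silent genes. The labels give no age, sex, strain or Cre driver, and leave unsaid whether the libraries of each group are from different mice. P-values therefore measure the spread between libraries only, which may be technical. Mice without DSS were not analysed here, and every difference below compares the genotypes under DSS.

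The proteasome is the large protease that degrades proteins tagged with ubiquitin. Its barrel-shaped core particle is a stack of rings made of alpha subunits, which form the gated ends, and beta subunits, of which Psmb5, Psmb6 and Psmb7 cut peptide bonds. The regulatory cap binds and unfolds ubiquitin-tagged proteins: its base holds a ring of ATPases and its lid removes the ubiquitin. Other activators can replace the cap, chaperones build the core particle, and NFE2L1 is the transcription factor known for raising proteasome genes together when proteasome activity falls. In inflamed gut, interferon gamma is known to swap the catalytic subunits for immunoproteasome subunits.

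The libraries held 5037367 and 5236519 estimated counts in wild type and 5399949 and 5446998 in knockout. Ezh2 had 105 and 102 counts in the wild-type libraries, against 86 and 83 counts in knockout, and its log2 fold change of -0.27 ± 0.17 did not pass edgeR's quasi-likelihood test (adjusted p = 0.217). The counts are per gene and do not show which exons were read, and the reason for the remaining Ezh2 counts was not tested. The 10 colon epithelial markers were abundant, with a summed level of 11489 and 11882 FPKM (fragments scaled to transcript length and library total) in wild type and 12983 and 13510 in knockout. Of them 7 rose, 2 fell and 1 did not pass. Those that fell were Epcam and Cdh1, with log2 fold changes of -0.27 and -0.60, while Krt20 had the highest at 1.25. The list thus did not move as one, and its summed level does not measure the share of epithelial cells. Markers of other cells moved between the groups as well, and these counts stand beside 23.0% of the 13608 genes tested that were called higher and 20.8% called lower. Of 14 leukocyte markers 11 rose and 2 fell, with a summed level of 237 and 258 FPKM in wild type and 424 and 447 in knockout. Of 10 fibroblast and smooth muscle markers 9 fell, from 2335 and 2515 summed FPKM to 1051 and 1347. Of 8 endothelial and glial markers 3 fell (46.2 and 44.5 summed FPKM in wild type, 24.4 and 30.1 in knockout). Of 5 erythroid markers all 3 that were tested fell (118 and 93.1 summed FPKM in wild type, 13.1 and 26.9 in knockout). Hba-a2 was at 0 in both knockout libraries. In wild type its counts (106.49 and 119.28) and those of Hba-a1 (183.51 and 109.72) were not whole, so reads could be split between these 2 genes. In bulk RNA, a different share of cells and a different amount of RNA per cell cannot be told apart, and the part of these cells in the results below was not tested.

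Of the 40 proteasome genes, 36 were higher in the Ezh2 knockout, 0 were lower and 4 did not pass the threshold of 0.05. Among all 13608 genes tested, 23.0% were called higher and 20.8% lower, 43.7% in either direction. At an unadjusted p under 0.05 edgeR called 37 of the 40 higher and 0 lower, a threshold at which the share of all genes was not computed. DESeq2 called 0 of the 40 lower after adjustment, beside 1721 lower among the 14790 genes it tested. Every listed subunit of the core particle and of the cap was among the 36: all 14 core genes and all 17 cap genes rose. The median log2 fold change of the 40 genes was 0.92, a 1.89-fold higher level, against a median of -0.002 over all genes tested. A log2 fold change of 0.92 or more was found in 8.50% of all genes tested. The 4 genes that did not pass were the inhibitor Psmf1, the chaperones Psmg1 and Psmg2, and Nfe2l1. Each log2 fold change is knockout minus wild type and is followed by its standard error. Each adjusted p comes from the quasi-likelihood test of edgeR, corrected by Benjamini-Hochberg over all genes tested.

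**Figure D1:**
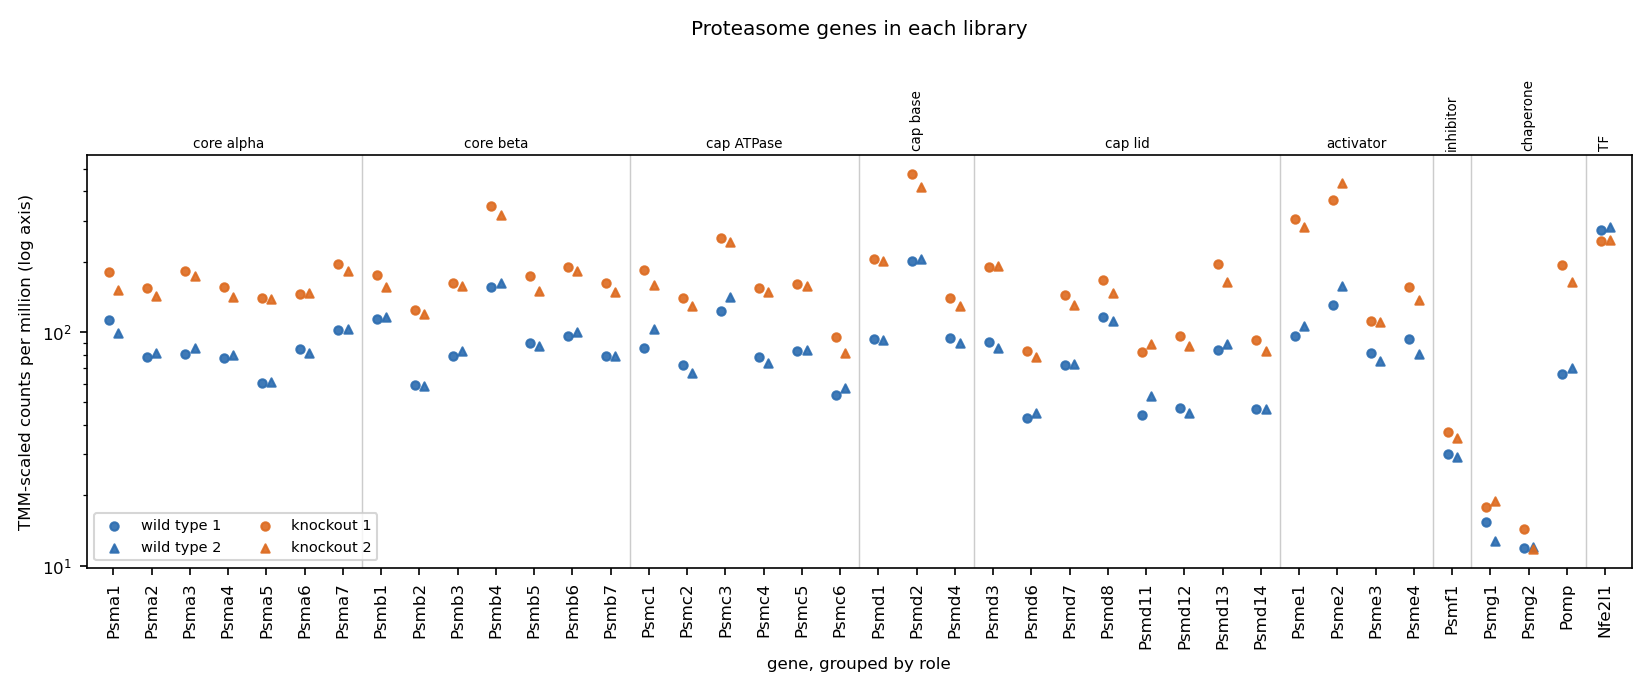
TMM-scaled CPM (log axis) of the 40 proteasome genes in each of the 4 libraries, grouped by role (TF, transcription factor). The 2 knockout libraries (orange) lie above the 2 wild-type libraries (blue) for all 14 core and 17 cap genes, and below them for Nfe2l1.

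The knockout libraries stood above the wild-type libraries without overlap for all 31 core and cap genes, in scaled counts and in FPKM. Over all genes tested, 36.8% had both knockout libraries above both wild-type libraries in scaled counts. The 31 genes had between 221 and 2466 counts in a library, and the largest ratio between 2 libraries of a group was 1.202. Within the knockout, replicate 1 was above replicate 2 for 28 of the 31 genes, with a median ratio of 1.08, and within wild type for 12 of 31, with a median ratio of 0.988. The knockout replicates thus differed slightly, by less than the difference between genotypes, and Psma6, Psmd3 and Psmd11 went the other way. The share of all genes tested with replicate 1 above replicate 2 was not computed, so this difference is not particular to these genes as far as shown. The rise was similar but not equal in size: the 31 log2 fold changes ran from 0.46 (Psmd8, 1.38-fold) to 1.19 (Psma5, 2.29-fold). Their SD was 0.18, above the median standard error of 0.095 for a single gene. The SD over all genes tested was 0.94, but that set also holds genes with fewer counts than these 31. Of the 31 genes, 26 lay between 0.8 and 1.2, and the 5 below were Psma1, Psmb1, Psmc6, Psmd4 and Psmd8.

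**Figure D2:**
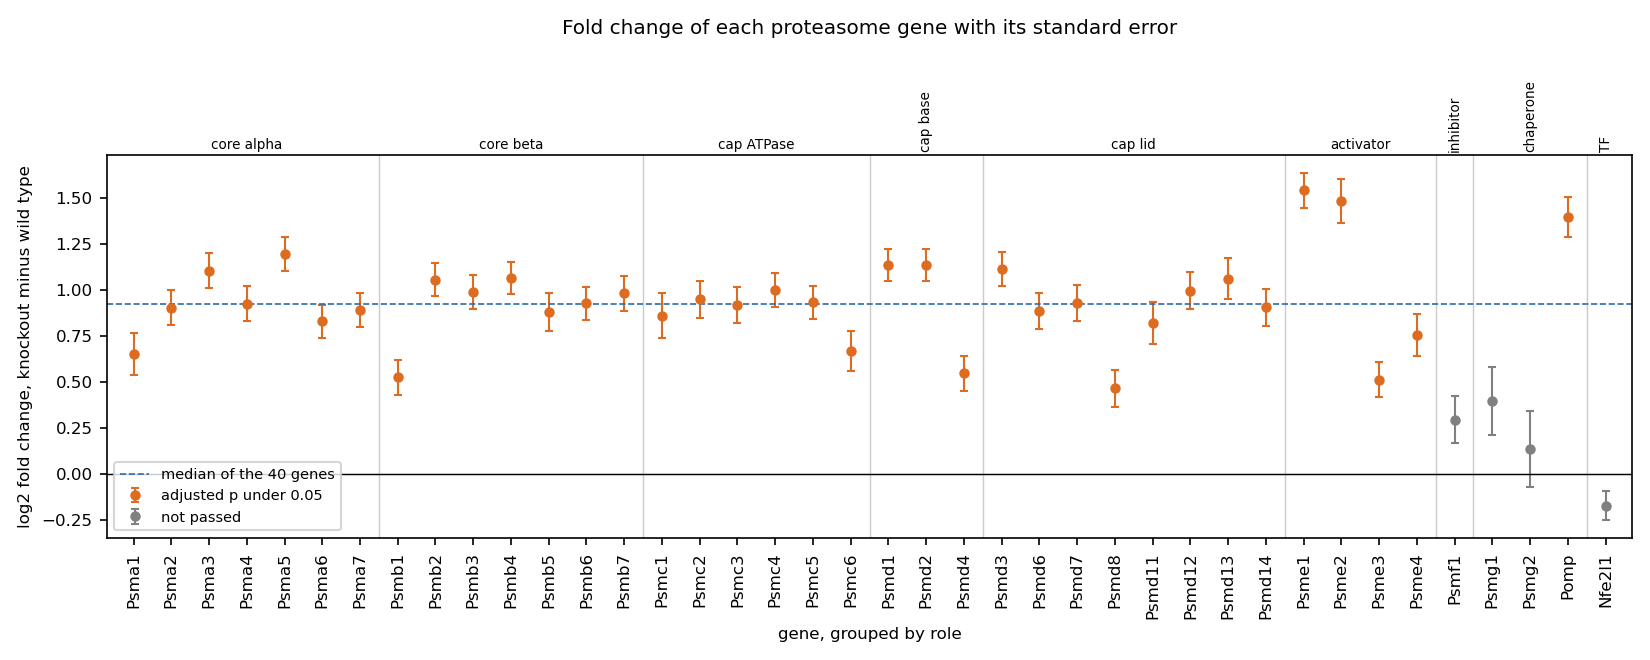
Log2 fold change, knockout minus wild type, of each proteasome gene with its standard error (bars), grouped by role (TF, transcription factor). Orange genes passed an adjusted p of 0.05, grey ones did not, and the dashed line is the median of the 40 genes at 0.92.

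All 7 core alpha genes rose, with a median log2 fold change of 0.90 and a range of 0.65 to 1.19. Psma5 had the highest fold change of the ring. Its level was 51.7 and 52.4 FPKM in wild type and 111.1 and 110.9 FPKM in knockout, a log2 fold change of 1.19 ± 0.09 (adjusted p = 1.48e-05). The libraries of a group were within 1 FPKM of each other and the groups were far apart. Psma1 had the lowest fold change, with 93.6 and 82.0 FPKM in wild type and 140 and 117 FPKM in knockout (0.65 ± 0.12, adjusted p = 0.00188). Its groups did not overlap, but its replicates were spread more than those of Psma5. With limma on quantile normalized log2(FPKM + 1), Psma1 did not pass (0.36, adjusted p = 0.0502). Psma2, Psma4, Psma6 and Psma7 had log2 fold changes of 0.83 to 0.92. Psma3 had 419 and 462 counts in the wild-type libraries, against 951 and 913 counts in knockout, a log2 fold change of 1.10 ± 0.09. Its FPKM values (58.5 and 37.1 for wild type, 124 and 70.4 for knockout) moved with a deposited transcript length. That length ran from 1434 to 2374 bases between libraries of different replicate numbers, so counts are given for Psma3. The counts too were made under transcript lists that differ by replicate number, and were not whole in replicate 2 (461.78 and 913.3). With limma on FPKM rescaled to equal totals or quantile normalized, Psma3 did not pass (0.91 and 0.89, adjusted p = 0.0528 and 0.0578).

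All 7 core beta genes rose, with a median of 0.98 and a range of 0.52 to 1.06. The 3 catalytic subunits rose by nearly the same amount. Psmb5, which carries the chymotrypsin-like activity that proteasome inhibitor drugs mainly block, was at 109.1 and 105 FPKM in wild type and 196 and 170.2 FPKM in knockout. Its log2 fold change was 0.88 ± 0.10 (adjusted p = 0.000195). Psmb6, the caspase-like subunit, was at 97.7 and 101 FPKM in wild type and 179 and 173 FPKM in knockout (0.93 ± 0.09, adjusted p = 6.15e-05). Psmb7, the trypsin-like subunit, was at 85.5 and 85.4 FPKM in wild type and 164 and 151 FPKM in knockout (0.98 ± 0.09, adjusted p = 6.12e-05). For each of the 3, both knockout libraries lay well above both wild-type libraries, and the 3 fold changes lay within about 1 standard error of each other. Of the beta subunits without a catalytic site, Psmb4, which joins late and helps the assembling particles pair up, was the most abundant core gene and had the highest fold change of the ring. It was at 173 and 179.7 FPKM in wild type and 359 and 328 FPKM in knockout (1.06 ± 0.09, adjusted p = 2.43e-05). Psmb1 had the lowest, with 115 and 118 FPKM in wild type and 165 and 147 FPKM in knockout (0.52 ± 0.10, adjusted p = 0.00232). Psmb2 and Psmb3 had log2 fold changes of 1.06 and 0.99. Psmb7 shares 405 exon bases with Nek6 on the other strand, and the counting is not stated to use strand. Reads of the pair may therefore be mixed, although the counts of Psmb7 were whole in every library. In the GENCODE M21 annotation 9 of the 40 genes share exon bases with another gene, from 7 bases (Psme1) to the 405 of Psmb7. Psmd1 shares 301 bases with Gm21972 and Psmb5 109 bases with Mir686, both on the same strand, where the strand could not separate the reads. The counts of Psmd1 and Psmb5 were whole in every library.

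Each catalytic subunit has an immunoproteasome counterpart that takes its place in newly built particles, and all 3 counterparts had higher fold changes. Psmb8, Psmb9 and Psmb10 had log2 fold changes of 2.46 ± 0.09, 2.89 ± 0.10 and 1.74 ± 0.09, beside 0.88, 0.93 and 0.98 for Psmb5, Psmb6 and Psmb7. Psmb5 made up 65.2% of the summed FPKM of Psmb5 and Psmb8 in each wild-type library and 40.5% and 36.5% in the knockout libraries. Psmb6 made up 76.7% and 78.3% of its pair with Psmb9 in wild type and 48.2% and 45.6% in knockout. Psmb7 made up 49.4% and 50.2% of its pair with Psmb10 in wild type, against 39.3% and 34.8% in knockout. The groups did not overlap in any of the 3 pairs. The constitutive transcript was the more abundant of the pair in wild type for Psmb5 and Psmb6, and the less abundant in knockout for all 3, although each constitutive gene itself rose. With 2 libraries against 2, an exact two-sided permutation test cannot go below p = 0.333, so these shares are given without a test.

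**Figure D3:**
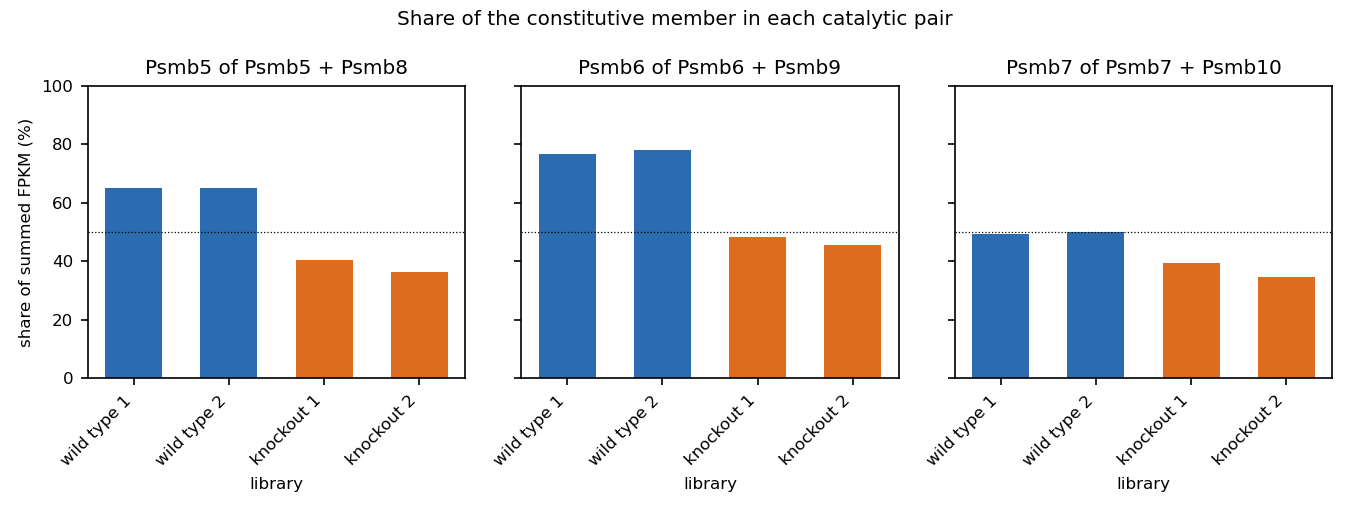
Share of the constitutive gene in the summed FPKM (%) of each catalytic pair, 1 bar per library, wild type in blue and knockout in orange, with a dotted line at 50%. Psmb5 made up 65.2% of its pair in both wild-type libraries and 40.5% and 36.5% in knockout, and the shares of Psmb6 and Psmb7 were also lower in both knockout libraries.

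Because the members rose together, their promoters were searched for short motifs, on both strands, in windows of 250 bases before to 50 bases after each annotated start (RefSeq, build GRCm38.p6). The windows cover 33 of the 40 genes. The core of the antioxidant response element, TGACNNNGC, which NFE2L1 and its relative NFE2L2 are known to bind, was found for 5 of the 33 genes (15.2%): Psmb5, Psmb6, Psmc6, Psmd12 and Psme4. Of all 27025 genes with a promoter window, 14.0% hold it, a share near that of the members. CCAAT was found for 12 of the 33 (36.4%, against 41.1% of all genes), TTCNNNGAA, the letters of an interferon gamma activated site, for Psmd2 and Psmg1 (6.06%, against 9.55%), and the letters of an interferon stimulated response element (GAAA, any 2 bases, GAAA) for Psmb3, Psmd4 and Psme1 (9.09%, against 3.99%). In Psme1, the gene with the largest fold change of the 40, these letters lie on the reverse strand from position 10 after the start. The 3 genes with these letters had log2 fold changes of 0.99 (Psmb3), 0.55 (Psmd4) and 1.54 (Psme1). Psme2 and Pomp, next after Psme1 in fold change, do not hold them. Psma5 and Pomp, which rose most among the core alpha genes and the chaperones, hold no TGACNNNGC in this window. The 250 bases before the start of these 2 genes and of the catalytic Psmb5 and Psmb6 are shown on the gene's strand, to let the windows with and without the motif be compared. Capitals mark TGACNNNGC, which begins at position -47 in Psmb5 (chr14:54617996-54618245, minus strand) and at position -9 in Psmb6 (chr11:70525107-70525356, plus strand), counted from the start. The windows without it are those of Psma5 (chr3:108256676-108256925, plus strand) and Pomp (chr5:147860378-147860627, plus strand).
Psmb5 promoter: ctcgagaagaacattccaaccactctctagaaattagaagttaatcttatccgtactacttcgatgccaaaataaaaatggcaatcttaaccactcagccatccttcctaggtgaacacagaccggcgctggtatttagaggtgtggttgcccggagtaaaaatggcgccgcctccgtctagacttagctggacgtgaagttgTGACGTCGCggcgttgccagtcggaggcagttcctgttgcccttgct
Psmb6 promoter: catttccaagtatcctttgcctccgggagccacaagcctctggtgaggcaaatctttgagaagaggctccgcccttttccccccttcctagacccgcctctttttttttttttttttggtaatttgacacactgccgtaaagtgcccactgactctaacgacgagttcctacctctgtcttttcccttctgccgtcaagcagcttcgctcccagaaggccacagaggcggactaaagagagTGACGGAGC
Psma5 promoter: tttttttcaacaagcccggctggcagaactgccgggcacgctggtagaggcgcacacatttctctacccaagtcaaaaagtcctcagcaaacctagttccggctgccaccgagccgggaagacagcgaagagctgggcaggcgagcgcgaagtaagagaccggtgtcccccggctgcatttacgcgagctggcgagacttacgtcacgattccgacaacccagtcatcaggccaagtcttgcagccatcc
Pomp promoter: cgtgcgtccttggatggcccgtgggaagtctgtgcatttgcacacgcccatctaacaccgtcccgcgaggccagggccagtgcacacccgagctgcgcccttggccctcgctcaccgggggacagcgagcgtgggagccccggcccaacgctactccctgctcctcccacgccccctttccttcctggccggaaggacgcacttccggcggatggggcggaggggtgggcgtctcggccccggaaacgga
A match of these letters is a description of the window and was not tested as a binding site. The 5 genes with TGACNNNGC had log2 fold changes of 0.88 (Psmb5), 0.93 (Psmb6), 0.67 (Psmc6), 1.00 (Psmd12) and 0.76 (Psme4). Psma5 and Pomp (1.19 and 1.40) were shown because they rose most in their classes. Their higher values were thus fixed by that choice and allow no comparison between genes with and without the motif.

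All 6 ATPases of the cap base rose, within the narrowest range of the 4 larger subunit classes. These subunits form the ring that unfolds a substrate and threads it into the core. Their median log2 fold change was 0.92 and their range 0.67 to 1.00. Psmc4 had the highest, with 56.4 and 53.3 FPKM in wild type and 104 and 100.5 FPKM in knockout (1.00 ± 0.09, adjusted p = 4.95e-05). Psmc6 had the lowest, with 35.6 and 37.9 FPKM in wild type and 58.6 and 50.2 FPKM in knockout (0.67 ± 0.11, adjusted p = 0.0012). Psmc6 was also the least abundant ATPase in every library, and its groups did not overlap. Psmc1, Psmc2, Psmc3 and Psmc5 had log2 fold changes of 0.86 to 0.95. Psmc3 shares 97 exon bases with Slc39a13 on the other strand.

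The other base subunits were split. Psmd1 and Psmd2, the large scaffolds of the base, rose by 1.14 ± 0.09 each. Psmd1 was at 29.3 and 29.1 FPKM in wild type and 60.2 and 59.3 FPKM in knockout (adjusted p = 1.65e-05), and Psmd2 at 68.8 and 70.4 FPKM against 151 and 134 FPKM (adjusted p = 1.63e-05). Psmd4, a receptor for ubiquitin chains, rose by 0.55 ± 0.10, from 73.4 and 69.7 FPKM to 101.3 and 93.5 FPKM (adjusted p = 0.00171). Psmd4 was thus slightly more abundant than Psmd2 or level with it in wild type and less abundant in knockout.

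All 8 lid genes rose, with a median of 0.92 and a range of 0.46 to 1.11. Psmd3, a structural subunit, had the highest fold change, with 43.2 and 40.6 FPKM in wild type and 83.7 and 85.1 FPKM in knockout (1.11 ± 0.09, adjusted p = 2.29e-05). Psmd14, the enzyme that cleaves ubiquitin chains off the substrate, rose by 0.91 ± 0.10, from 31.1 and 30.9 FPKM to 57.1 and 51.1 FPKM. Psmd8, which joins last in lid assembly, had the lowest fold change of the core and cap genes. It was at 78.6 and 75.6 FPKM in wild type and 105 and 93.3 FPKM in knockout (0.46 ± 0.10, adjusted p = 0.0047), with no overlap between the groups. Psmd8 did not pass with limma on FPKM rescaled to equal totals (0.28, adjusted p = 0.0512) or quantile normalized (0.21, adjusted p = 0.0969). Psmd6, Psmd7, Psmd11, Psmd12 and Psmd13 had log2 fold changes of 0.82 to 1.06. Psmd13 shares 152 exon bases with Sirt3 on the other strand.

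The 4 larger subunit classes could hardly be told apart by how much they rose. Their median log2 fold changes were 0.90 for core alpha, 0.98 for core beta, 0.92 for the ATPases and 0.92 for the lid, and every member of each class passed. The distance between classes within a library restates this comparison from the same counts and is not separate support. The median log2 scaled count of core alpha genes stood 0.43 ± 0.06 (SD, n = 2) above that of lid genes in wild type and 0.43 ± 0.02 above it in knockout. Core alpha stood at -0.13 ± 0.04 relative to core beta in wild type and at -0.12 ± 0.05 in knockout. Of the 6 distances between the 4 classes, 5 overlapped between the groups. The sixth, core alpha against the ATPases, went from 0.02 ± 0.02 to -0.04 ± 0.03. These distances were not tested, for the same reason as the shares above.

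Levels per length had a similar, not identical, order in wild type and knockout. Leaving out Psma3, the FPKM of the other 30 core and cap genes ran from 26.1 to 173 in wild-type replicate 1 and from 45.2 to 359 in knockout replicate 1, a span of 6.66-fold and 7.94-fold. The median was 70.5 and 70.7 FPKM in the wild-type libraries and 122 and 114 FPKM in the knockout libraries. The order of the 30 mean levels in wild type and in knockout had a Spearman correlation of 0.94, given as a description across genes that share 4 libraries. Psmb4 was the highest in each of the 4 libraries, and Psmd11 or Psmd12 the lowest. The core particle genes were more abundant than the cap genes: the median of the 14 core genes was 91.1 and 86.8 FPKM in wild type and 160 and 146 FPKM in knockout, and that of the 17 cap genes 46.0 and 46.4 FPKM, and 85.7 and 85.1 FPKM.

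**Figure D4:**
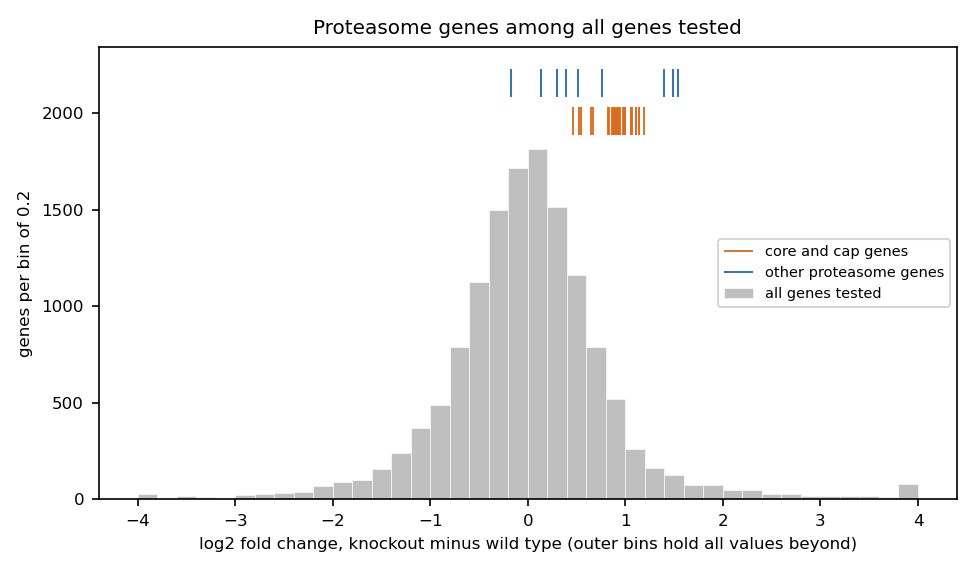
Number of genes tested per bin of log2 fold change, knockout minus wild type (grey), with a tick for each core and cap gene (orange) and each other proteasome gene (blue). The 31 core and cap genes lie between 0.46 and 1.19, on the upper flank of all genes tested, whose median is -0.002.

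The activators of the core differed from one another. Psme1 and Psme2 encode the alternating subunits of the PA28 ring, an interferon-inducible activator that opens the core without ATP and aids antigen processing, and their fold changes were higher than those of all 31 core and cap genes. Psme1 was at 103 and 114 FPKM in wild type and 305 and 284 FPKM in knockout, a log2 fold change of 1.54 ± 0.10 (adjusted p = 4.36e-06). Psme2 was at 152 and 184 FPKM in wild type and 400.3 and 474 FPKM in knockout (1.48 ± 0.12, adjusted p = 2.13e-05). Both genes lay apart between the groups, and Psme2 was the more abundant in every library. The counts of Psme2 were not all whole, and its close copy Psme2b was listed at 11.2 to 13.6 counts per library, so reads could be split between the copies. Relative to the median of the core genes in the same library, Psme1 stood at 0.22 and 0.33 on the log2 scale for wild type, while the knockout values were 0.85 and 0.91.

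The nuclear activators Psme3 and Psme4 rose with lower fold changes. Psme3, which forms a ring of its own kind in the nucleus, was at 31.7 and 29.3 FPKM in wild type and 40.7 and 40.4 FPKM in knockout (0.51 ± 0.09, adjusted p = 0.0022). Psme4, a large single-chain activator, was at 14.8 and 12.7 FPKM in wild type and 22.9 and 20.2 FPKM in knockout (0.76 ± 0.11, adjusted p = 0.000707). Relative to the core genes of the same library, Psme3 stood lower in knockout (-0.59 and -0.45) than in wild type (-0.03 and -0.17), the opposite of Psme1. The distances were not tested.

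Psmf1, known as an inhibitor of the core in vitro, was at 8.58 and 8.30 FPKM in wild type and 9.96 and 9.36 FPKM in knockout. Both knockout values were above both wild-type values, but the log2 fold change of 0.30 ± 0.13 did not pass (adjusted p = 0.0873). It passed in 1 of the 15 alternative analyses, edgeR with the replicate block (0.30, adjusted p = 0.0443).

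Of the 3 core assembly chaperones, Pomp rose and Psmg1 and Psmg2 did not pass. Pomp guides the beta subunits onto the alpha ring and is degraded as the first substrate of each new particle. It was at 96.1 and 101 FPKM in wild type and 261 and 222 FPKM in knockout, a log2 fold change of 1.40 ± 0.11 (adjusted p = 1.69e-05). Only Psme1 and Psme2 had a higher fold change among the 40 genes. Psmg1 and Psmg2 form the dimer on which the alpha ring is built. Psmg1 was at 15.5 and 12.8 FPKM in wild type and 16.9 and 17.8 FPKM in knockout (0.39 ± 0.19, adjusted p = 0.117). Psmg2 was at 11.4 and 11.6 FPKM in wild type and 13.0 and 10.6 FPKM in knockout (0.14 ± 0.21, adjusted p = 0.63), and it was the only proteasome gene whose groups overlapped in scaled counts. Both were counted at only 60 to 97 per library, fewer than any core or cap gene, and their standard errors were about 2 times those of the core genes.

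Nfe2l1 was the 1 gene of the 40 with a negative log2 fold change. It had 1421 and 1522 counts in the wild-type libraries, against 1270 and 1302 counts in knockout, and its level was 62.6 and 66.9 FPKM in wild type against 55.3 and 54.2 FPKM in knockout. Both knockout libraries lay below both wild-type libraries. The log2 fold change of -0.17 ± 0.08 did not pass (adjusted p = 0.113), but it did in 5 of the 15 alternative analyses, each of them in the lower direction: edgeR with library totals alone (-0.27, adjusted p = 0.0215), edgeR on genes averaging at least 5 FPKM (-0.24, adjusted p = 0.0266), edgeR with the replicate number as a block (-0.17, adjusted p = 0.0144) and limma on rescaled (-0.31, adjusted p = 0.0208) or quantile normalized FPKM (-0.34, adjusted p = 0.0169). NFE2L1 is controlled largely after translation, by release from the endoplasmic reticulum and cleavage, which RNA levels do not show. Relative to the core genes of the same library, Nfe2l1 stood at 1.73 and 1.74 on the log2 scale in the wild-type libraries, but at 0.54 and 0.72 in the knockout libraries. Most of this change is the rise of the core genes, whose median log2 fold change was 0.93, and not a fall of Nfe2l1.

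Apart from the immunoproteasome subunits described above, the lists of genes around the listed members showed smaller medians. Of 11 other cap subunits and cap or core assembly factors, 8 rose and 0 fell (median log2 fold change 0.60), beside 23.0% of all genes called higher and 20.8% called lower. Psmg4, a core assembly chaperone, had the highest value (1.26 ± 0.28, adjusted p = 0.00608), and Psmd5, a chaperone of the cap base, the lowest of those that passed (0.40 ± 0.12, adjusted p = 0.0219). The 3 that did not pass were Psmd10, Ecpas and Ube3c, at 0.36, -0.19 and -0.23. Of 12 genes that process NFE2L1 or share its partners, 6 rose and 0 fell (median 0.41), with 1, Nfe2l2, lower at an unadjusted p under 0.05. In the other lists of related genes edgeR called 0 lower at that unadjusted p, and DESeq2 called 0 lower after adjustment in any of them. The highest was Vcp, the ATPase that extracts NFE2L1 and other proteins from membranes and complexes (1.11 ± 0.08, adjusted p = 1.45e-05), and the lowest of those that passed was Maff (0.44 ± 0.13, adjusted p = 0.0208). Ddi2 and Ngly1, the protease and the glycanase that activate NFE2L1, did not pass, at 0.11 ± 0.10 and -0.11 ± 0.12 (adjusted p = 0.384 and 0.476). Its relative Nfe2l2 was at -0.27 ± 0.10 (adjusted p = 0.0626).

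Genes of ubiquitin supply had the lowest median of these lists. Of 14 ubiquitin genes, activating enzymes and shuttle factors, 5 rose and 0 fell, with a median log2 fold change of 0.21, beside 23.0% of all genes called higher. The shuttle factor Rad23b had the highest value (0.75 ± 0.09, adjusted p = 0.00028), and Rps27a, which encodes ubiquitin fused to a ribosomal protein, the lowest of those that passed (0.24 ± 0.09, adjusted p = 0.0479). Ubb, which encodes a chain of ubiquitin units, did not pass, at -0.12 ± 0.07 (adjusted p = 0.209).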

How the data were processed

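RNA from primary colon epithelial cells of DSS-treated wild-type and Ezh2 knockout mice was extracted with Trizol and made into libraries with an Illumina TruSeq RNA kit, per the labels' protocols. The authors deposited 1 table per library with estimated counts per gene (expected counts, per the file headers), FPKM values scaled to transcript length and library total, and a transcript length, which served only to describe Psma3. Which program made the counts was not given in the sources used here. The submitters' processing notes name Bowtie2, BWA and the human build hg19, yet the transcripts are mouse RefSeq accessions, so no coordinates of the files are given. Symbols came from RefSeq (GRCm38.p6), which matched 99.72% of the identifiers.

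A gene that a file does not list was set to 0 there. Expected counts were rounded, and the 2 groups of 2 libraries were compared with edgeR 4.0.16 under R 4.3.3, using filterByExpr, TMM factors (0.965 to 1.04) and a two-sided glmQLFTest without a block, at an adjusted p of 0.05. Standard errors were obtained from the log2 fold change and the F statistic. Transcript lists differ between the files of replicate 1 and replicate 2, among these genes for Psma3 and Psma6. Libraries of a group differed beyond sampling noise (chi-square per degree of freedom 2.18 and 2.95) and were kept separate. The 40 genes, the gene lists and the motifs were chosen with earlier results of these data known. Values in every library are given for the catalytic subunits, activators, inhibitor, chaperones, Nfe2l1 and the members of each class with the highest and the lowest fold change. Psmd2, Psmd14 and Psma3, and the genes of the other lists named without passing the threshold, were chosen after their values were seen. Alternatives used DESeq2 1.42.0 and limma 3.58.1. The edgeR and limma steps were tested on simulated data.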

Additional observations from a re-analysis of the deposited data

How the results depend on the processing

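Leaving out a library leaves 1 in its group, so the spread comes from the other group alone and the lone library is assumed to vary like it. In these fits 4610 to 5764 genes were called, and the 36 proteasome genes were among those called higher in each. The 15 alternatives for each gene that could be fitted gave 598 values, of which 585 kept their direction and side of the threshold, 6 newly passed, 5 no longer passed and 2 turned sign, both for Psmg2, which passed in none: -0.049 with limma on rescaled FPKM, and -0.026 to 0.28 with a library left out, the lowest without knockout replicate 1 and the highest without knockout replicate 2. Nfe2l1 was the 1 gene called lower with library totals alone, with a mean FPKM of at least 5, with limma on rescaled or quantile normalized FPKM and with the replicate block. The labels do not say that a replicate number marks a shared animal or day. Same-numbered libraries deviated together (correlation 0.57 across 13608 genes, 2 pairs), and the annotation differs by number too. The replicate block raised the genes called from 5950 to 7403, and of these genes it added Psmf1 (0.30, adjusted p = 0.0443) and Nfe2l1. DESeq2 called 3917 genes.

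Size depended on the scaling. Called genes were 52.5% higher ones with TMM factors, 42.4% with library totals and 35.9% with limma on rescaled FPKM, with a median of all genes of -0.002, -0.103 and -0.147. The median of the 40 genes lay 0.92, 0.92 and 0.88 above these. This distance was smaller in edgeR on genes with a mean FPKM of at least 5 (0.85) and with limma on quantile normalized FPKM (0.68). The median of the 40 genes itself was 0.82 with library totals, 0.81 and 0.82 with limma on log2(FPKM + 1) and log2(FPKM + 0.1), 0.73 rescaled and 0.67 quantile normalized. In the same order core alpha was 0.80, 0.80, 0.81, 0.72 and 0.64, and the ATPases 0.82, 0.82, 0.82, 0.74 and 0.66. Core beta was 0.79 rescaled and 0.69 quantile normalized. The lid was 0.80 with log2(FPKM + 1), 0.72 rescaled and 0.73 quantile normalized. With a mean FPKM of at least 5, core alpha was 0.83 and the ATPases 0.85. With a library left out the median of the 40 genes ran from 0.86 to 0.98, core alpha from 0.84 to 0.97, core beta from 0.91 to 1.02, the ATPases from 0.86 to 0.96 and the lid from 0.86 to 1.00, each lowest without knockout replicate 1 except the ATPases, which were lowest without wild-type replicate 1.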
